A study of Mus musculus with 6 samples.

Results

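NF-kappa-B is a family of transcription factors, and the 10 genes described here encode its 5 subunits, 4 proteins of the inhibitor family and the ubiquitin-editing enzyme A20. They are Nfkb1, Nfkb2, Rel, Rela and Relb, then Nfkbia, Nfkbie, Nfkbiz and Bcl3, and Tnfaip3. They were chosen by name, as every gene probe on the array whose name in the scanner files is one of these symbols. This gave 12 probes among 39429, of which Nfkb1 and Relb had 2 each. After a filter on dim probes 9 of the 10 genes remained among 26153 genes or names tested, and Rel, the one left out, is described with the subunits.

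The retina was taken from male C57BL/6 mice aged 8 weeks, 7 days after 1 of 3 injections into the vitreous of the right eye. These were phosphate-buffered saline (PBS), titanium dioxide nanoparticles at a dose labelled PTC, and the same particles at 10 times that dose, labelled 10PTC. Groups were of 12 mice, and with 4 retinas to a tube each dose has 3 pools. On every array the treated pool was labelled with Cy5 and the RNA of PBS retinas with Cy3, and none had the dyes exchanged. A dye effect on a probe and the treatment therefore cannot be told apart in the comparisons with PBS, and the spread of the control itself is not measured. PTC replicates 1 and 2 were on slide 1, and PTC replicate 3 was on slide 2 with the 3 10PTC arrays.

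In resting cells the inhibitors of the classical kind, such as IkappaB-alpha (Nfkbia) and IkappaB-epsilon (Nfkbie), hold NF-kappa-B dimers in the cytoplasm. Signals from tumour necrosis factor, interleukin-1 and Toll-like receptors activate a kinase complex that marks these inhibitors for degradation, and the freed dimers enter the nucleus. Bcl3 and IkappaB-zeta (Nfkbiz) are atypical members of the inhibitor family. They act in the nucleus, where Bcl3 binds dimers of p50 or p52, the products of Nfkb1 and Nfkb2, and can raise or lower transcription of their targets. Several of these genes, among them Nfkbia, Nfkbie, Nfkb2, Relb and Tnfaip3, are themselves known NF-kappa-B targets, so that their transcripts are often read as a sign of the pathway's activity. In the retina the pathway is known from microglia and Müller glia.

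Of the 9 genes measured, Bcl3 stood apart. It was several-fold higher in the treated retina on every array and at both doses, while the other 8 genes moved by less than 0.5 log2 units on average in either direction. Values are log2 ratios of the treated to the control channel, with 0 for no difference and 1 for a doubling, and errors are SD over 3 pools. At PTC, 2 of the 9 genes rose, Nfkb1 and Bcl3. This is 22.2%, beside 16.8% of all genes that rose at an adjusted p of 0.05 in limma. At 10PTC, 4 of the 9 rose, Nfkb1, Relb, Nfkbie and Bcl3, which is 44.4% beside 14.4% of all genes. None passed as lower at either dose, beside 16.2% of all genes at PTC and 13.3% at 10PTC. The median over the 9 genes was 0.13 at PTC and 0.27 at 10PTC. More cells of a type and more RNA per cell cannot be told apart in such pools. With the slide as a block, or without any 1 of the 3 10PTC arrays, the count at 10PTC was 1, which was Bcl3. The share of all genes called at 10PTC fell too in these fits, from 27.7% to 3.85% with the slide as a block and to 5.18%, 19.4% and 6.01% without replicates 1, 2 and 3.

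**Figure D1:**
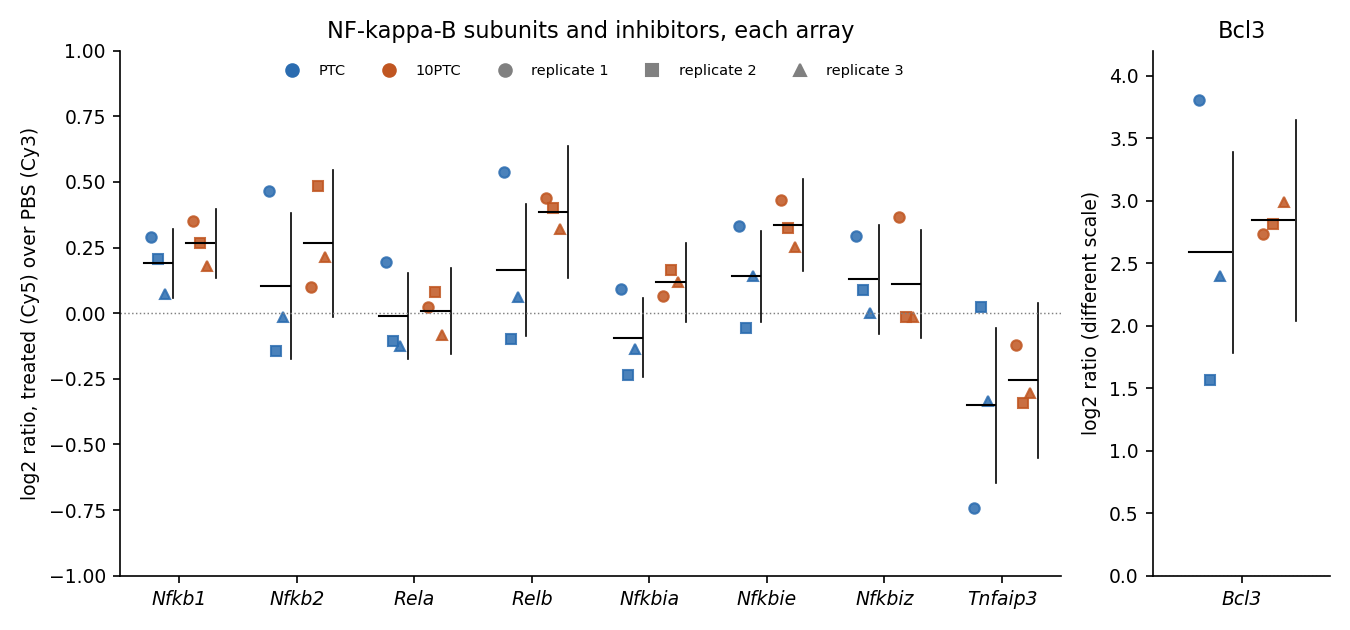
Log2 ratio of treated over PBS on each array for the 9 genes that passed the filter on dim probes, with Bcl3 on an axis of its own. Points are arrays, with the colour for the dose and the shape for the replicate number; horizontal lines are the means of 3 arrays and vertical lines the 95% confidence intervals of the limma fit. Bcl3 lies between 1.56 and 3.80, and the other genes between -0.74 and 0.54.

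Bcl3 had log2 ratios of 3.80, 1.56 and 2.40 on PTC replicates 1, 2 and 3, and of 2.74, 2.81 and 2.99 on the 10PTC replicates. All 6 arrays were high, with the widest spread among the PTC pools and little among the 10PTC pools. The mean was 2.59 ± 1.13 (SD, n = 3) at PTC, a 6.02-fold increase with a 95% interval of 3.44 to 10.5 and a limma adjusted p of 0.00267. At 10PTC it was 2.84 ± 0.13 (SD, n = 3), a 7.18-fold increase with an interval of 4.11 to 12.6 and a limma adjusted p of 0.00272. Among the mean increases of all genes tested it ranked 3 at PTC and 1 at 10PTC. It was the highest of the 9 genes on every array, and the gap to the next one was 1.36 log2 units on PTC replicate 2 and between 2.26 and 3.27 on the other arrays. Without PTC replicate 1 the PTC mean was 1.98, with a limma adjusted p of 0.00142. On slide 1 alone, with 2 arrays, the mean was 2.68 and the limma adjusted p 0.091, so that the call was lost there. In that fit 1.08% of all genes were called, beside 33.1% in the fit of all arrays. On slide 2 the lone PTC array stood at 2.40.

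The signals behind the ratio show which channel differed between arrays. In the control channel the Bcl3 probe read 546, 432 and 453 units on the PTC arrays and 473, 491 and 458 on the 10PTC arrays. The treated channel read 9447, 1670 and 3361 units on the PTC arrays and 5793, 4910 and 5807 on the 10PTC arrays. These are mean spot signals before background correction and normalization. The control signals differed by 1.26 times from the lowest to the highest array and the treated signals by 5.66 times. Both channels stood above background on all 6 arrays. The probe lies on chromosome 7 at 20393826 to 20393885, minus strand, in the mm9 coordinates of the array design and its position relative to exons was not annotated here.

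**Figure D2:**
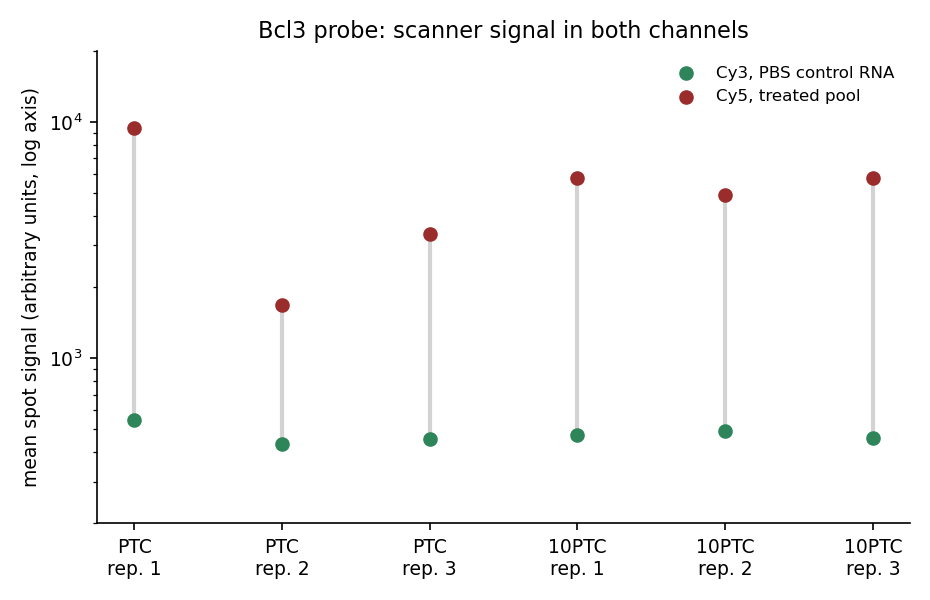
Mean scanner signal of the Bcl3 probe on each array, on a log axis, with green for Cy3 (PBS) and red for Cy5 (treated), joined by a grey line. The control signals lie between 432 and 546 units, and the treated signals between 1670 and 9447.

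Among the subunits, Nfkb1 encodes p105, the precursor of p50. Its brighter probe had ratios of 0.29, 0.21 and 0.073 on the PTC arrays and 0.35, 0.27 and 0.18 on the 10PTC arrays, so that all 6 lay above 0. The mean was 0.19 ± 0.11 (SD, n = 3) at PTC, 1.14-fold with a limma adjusted p of 0.0377, and 0.27 ± 0.087 at 10PTC, 1.20-fold with a limma adjusted p of 0.015. The other Nfkb1 probe did not show this. It had means of 0.0060 and 0.030, with limma adjusted p-values of 0.961 and 0.802 when all probes were tested, and it was above 0 on some arrays and below on others. With both probes averaged, Nfkb1 passed at neither dose (adjusted p = 0.235 and 0.101), and its call at PTC was lost in 12 of 24 alternatives. The probes lie on chromosome 3 at 135247621 to 135247680 and at 135254550 to 135254609 (mm9), both dim at 95 to 121 units in the control channel.

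Relb encodes the subunit that pairs with p52 in the non-canonical branch of the pathway. It had ratios of 0.54, -0.098 and 0.060 on the PTC arrays and 0.44, 0.40 and 0.32 on the 10PTC arrays. The 10PTC pools were close together, and the PTC pools spread from below to above all of them. The mean at 10PTC was 0.39 ± 0.060 (SD, n = 3), a 1.31-fold increase with an interval of 1.10 to 1.56 and a limma adjusted p of 0.0354. At PTC it was 0.17 ± 0.33, with an adjusted p of 0.268. A second Relb probe, which shares 9 bases with the first (chromosome 7, 20191722 to 20191781 and 20191773 to 20191832, mm9), had means of 0.13 and 0.26, the latter with an adjusted p of 0.041 over all probes. The 10PTC call was lost in 8 of 23 alternatives, among them the fit that blocks on slide (adjusted p = 0.138), the scanner's processed signals (0.0893) and the authors' deposited log2 table (0.0928). Relb and Bcl3 lie on the same chromosome, with 202 kb between their probes.

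Nfkb2 encodes p100, the precursor of p52. It stood at 0.47, -0.14 and -0.014 on the PTC arrays and at 0.10, 0.49 and 0.21 on the 10PTC arrays. The means, 0.10 ± 0.32 and 0.27 ± 0.20 (SD, n = 3), did not pass (limma adjusted p = 0.533 and 0.134). In 4 of 23 alternatives Nfkb2 passed as higher at 10PTC, with 0.0303 as the adjusted p without PTC replicate 1. Rela encodes p65, the main activating subunit. Its ratios were 0.20, -0.10 and -0.12 on the PTC arrays and 0.023, 0.080 and -0.082 on the 10PTC arrays, which places it on both sides of 0 at both doses. The 95% interval of its fold was 0.886 to 1.11 at PTC and 0.897 to 1.13 at 10PTC. With median centring in place of loess, however, Rela stood at 0.25 at 10PTC and passed (adjusted p = 0.0227). Rel encodes c-Rel, a subunit known best from lymphocytes. Its probe was above background on 0 of 6 arrays in the control channel and on 1 of 6 in the treated channel, so that no ratio was tested for it.

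Of the 2 classical inhibitors, Nfkbie followed an order much like that of Relb. Its ratios were 0.33, -0.055 and 0.14 on the PTC arrays and 0.43, 0.32 and 0.25 on the 10PTC arrays. The 10PTC mean was 0.34 ± 0.090 (SD, n = 3), a 1.26-fold increase with an interval of 1.12 to 1.42 and a limma adjusted p of 0.0171. The PTC mean was 0.14 ± 0.19, with an adjusted p of 0.185. Nfkbia stood at 0.091, -0.23 and -0.14 on the PTC arrays and at 0.065, 0.17 and 0.12 on the 10PTC arrays. Its means of -0.093 ± 0.17 and 0.12 ± 0.051 (SD, n = 3) did not pass (limma adjusted p = 0.298 and 0.21). With median centring in place of loess Nfkbia passed as higher at 10PTC, at 0.35 (adjusted p = 0.00389), and its PTC mean changed sign to 0.067.

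Nfkbiz, the other atypical member, had ratios of 0.30, 0.090 and -0.00041 on the PTC arrays and 0.36, -0.013 and -0.014 on the 10PTC arrays. One array of each dose was high and the others lay near 0. The means of 0.13 ± 0.15 and 0.11 ± 0.22 (SD, n = 3) did not pass (limma adjusted p = 0.295 and 0.371). Tnfaip3 encodes A20, which removes and edits ubiquitin chains and so turns the pathway down. It was the lowest of the 9 genes on 5 of 6 arrays. Its ratios were -0.74, 0.025 and -0.34 on the PTC arrays and -0.12, -0.34 and -0.30 on the 10PTC arrays. The means of -0.35 ± 0.38 and -0.26 ± 0.12 (SD, n = 3) did not pass (limma adjusted p = 0.0684 and 0.168), but Tnfaip3 passed as lower in 2 of 24 alternatives at PTC and in 4 of 23 at 10PTC. With median centring its 10PTC mean was -0.0021.

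The 3 genes beside Bcl3 that rose at 10PTC changed by 1.20- to 1.31-fold, and they did not pass when any 1 of the 3 10PTC arrays was left out. Without 10PTC replicate 1, 2 or 3 none of the 3 passed, with limma adjusted p-values of 0.109, 0.0548 and 0.0572 for Nfkb1, 0.167, 0.117 and 0.119 for Relb, and 0.117, 0.0596 and 0.0697 for Nfkbie. The means in those fits were 0.22, 0.27 and 0.31 for Nfkb1, 0.36, 0.38 and 0.42 for Relb, and 0.29, 0.34 and 0.38 for Nfkbie, about as large as with all arrays. Bcl3 passed each time, with 0.0297, 0.0149 and 0.0291. Under median centring the members called at 10PTC were 6, while the share of all genes called there went from 27.7% to 56.1%, and the share of all called genes that were higher moved from 50.9% to 66.0% at PTC and from 52.1% to 65.8% at 10PTC.

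The comparison of 10PTC with PTC asked whether the larger dose changed these genes further. Only PTC replicate 3 shared a slide with the 10PTC arrays, so dose and slide can hardly be told apart here. With the slide as a block the Bcl3 difference was 0.445, and 0 of the 9 genes passed. No gene of the 9 passed, and the same held for all 26153 genes, with 0% called in limma. At an unadjusted p of 0.05, 2133 genes (8.16%) and 0 of the 9 passed. The Bcl3 difference was 0.26, and its 95% interval of -0.88 to 1.39 holds both a fall and a rise of more than 1.5-fold. The smallest unadjusted p was that of Nfkbia, 0.0524, for a difference of 0.21 with an interval of -0.0028 to 0.42. For Relb the difference was 0.22 (-0.14 to 0.58) and for Nfkbie 0.20 (-0.050 to 0.44). Both passed at 10PTC and not at PTC, but their difference between the doses did not pass. The Bcl3 difference turned to -0.26 without PTC replicate 2.

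The PTC pools differed among themselves in most of these genes. On PTC replicate 1, 8 of the 9 stood above 0, against 4 of 9 on replicates 2 and 3. On the 10PTC arrays it was 8, 7 and 6 of 9. Marker genes of glia were also highest on PTC replicate 1 and lowest on PTC replicate 2. Of 18 genes listed for microglia and macrophages 16 rose at PTC and 15 at 10PTC, and of 18 listed for reactive Müller glia and astrocytes 13 rose at each dose and 1, Glul, fell. The medians of the microglial list were 1.68, 0.59 and 1.12 on the PTC arrays and 0.88, 0.89 and 1.06 on the 10PTC arrays. Those of the glial list were 1.89, 0.79 and 1.15, and then 1.25, 1.25 and 1.07. Their part in the Bcl3 result was not tested. All 14 skeletal muscle genes measured fell at both doses, with medians of -2.86 and -2.17, and 4 and 3 of 4 red blood cell genes fell; their part was not tested either. Neutrophil, lymphocyte, endothelial and photoreceptor lists had medians between -0.054 and 0.13. Of 8, 9, 11 and 13 genes measured, 1, 2, 5 and 3 were called at PTC and 2, 2, 2 and 2 at 10PTC, in either direction. Of all genes tested, 16.8% rose and 16.2% fell at PTC, and 14.4% rose and 13.3% fell at 10PTC. In either direction 33.1% of all genes were called at PTC and 27.7% at 10PTC. The counts of all these marker lists are to be read against these shares. The neutrophil genes called, 1 at PTC and 2 at 10PTC, were all higher. In that list Csf3r had means of 0.20 and 0.40, Mpo of 0.13 and 0.16 and Ltf of -0.19 and -0.15. The Camp probes lay between -0.18 and -0.11 at both doses. S100a8, also of the neutrophil list, stood at 2.63, -0.18 and 1.11 on the PTC arrays and at 0.83, 0.19 and -0.057 on the 10PTC arrays, and did not pass (limma adjusted p = 0.0783 and 0.619). The photoreceptor gene Sag, a marker of the retina itself, was above background in Cy3 and in Cy5 of each array.

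The promoter letters of these genes are shown because several are textbook NF-kappa-B targets. RefSeq promoters (build GRCm38.p6) were at hand for 7 of the 10 genes, and Nfkb1, Relb and Nfkbiz had none. In the 250 bases before the most upstream start, the kappa-B consensus of 10 bases, searched on both strands, occurred in 5 of the 7, namely Nfkb2, Rel, Nfkbia, Nfkbie and Tnfaip3. It occurred in 3.9% of 32851 promoter windows of this length. The Bcl3 and Rela windows held none, which says only that these letters are absent from the windows. The 4 windows below are given 5′ to 3′ on the strand of the gene with consensus matches in capitals, for Bcl3 (chr7:19822756-19823005, minus strand), Nfkbie (chr17:45555450-45555699, plus strand), Nfkbia (chr12:55492648-55492897, minus strand) and Nfkb2 (chr19:46304487-46304736, plus strand).
Bcl3: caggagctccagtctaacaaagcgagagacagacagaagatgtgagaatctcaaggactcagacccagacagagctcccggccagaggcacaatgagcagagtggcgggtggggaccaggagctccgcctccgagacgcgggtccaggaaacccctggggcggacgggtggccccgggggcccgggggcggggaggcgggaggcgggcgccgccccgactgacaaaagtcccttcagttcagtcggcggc
Nfkbie: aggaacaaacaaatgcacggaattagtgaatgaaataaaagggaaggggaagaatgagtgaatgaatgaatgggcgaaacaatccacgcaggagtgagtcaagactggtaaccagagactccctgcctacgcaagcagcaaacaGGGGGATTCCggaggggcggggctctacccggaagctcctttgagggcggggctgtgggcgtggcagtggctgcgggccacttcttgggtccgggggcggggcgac
Nfkbia: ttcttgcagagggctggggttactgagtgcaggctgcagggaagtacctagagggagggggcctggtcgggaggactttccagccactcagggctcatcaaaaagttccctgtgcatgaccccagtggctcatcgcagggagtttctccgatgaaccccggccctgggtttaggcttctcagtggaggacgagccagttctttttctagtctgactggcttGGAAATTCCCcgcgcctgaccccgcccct
Nfkb2: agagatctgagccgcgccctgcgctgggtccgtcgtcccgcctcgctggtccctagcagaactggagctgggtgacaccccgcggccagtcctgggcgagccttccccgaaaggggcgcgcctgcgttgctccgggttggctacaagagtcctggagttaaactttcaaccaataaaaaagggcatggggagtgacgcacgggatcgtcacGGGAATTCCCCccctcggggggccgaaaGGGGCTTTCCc
The Nfkbie match begins 106 bases before the start and that of Nfkbia 29 bases before it. Nfkb2 has matches at 39, 38 and 11 bases, the first 2 of which overlap. The Stat motif TTCNNNGAA, which reads the same on both strands, occurred in 7.02% of the windows and among the 7 genes only in that of Nfkb2. A match is a run of letters and not a measured binding site.

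The other genes of the pathway, and those of Stat3 signalling, were followed through 5 lists, of which 97 genes were measured. At PTC 34 of the 97 rose and 7 fell, and at 10PTC 33 rose and 5 fell. The Stat3 list holds 16 of the 97. It gave 6 of the rises and 1 of the falls at PTC, and 7 of the rises and 0 of the falls at 10PTC. Of all genes tested, 16.8% rose and 16.2% fell at PTC, and 14.4% rose and 13.3% fell at 10PTC, and the counts of each list are to be read against these shares. The counts moved when arrays were left out, and so did the share of all genes called: 41 genes in all passed at PTC and 24 without PTC replicate 3, and 38 passed at 10PTC but 13, 24 and 19 without 10PTC replicates 1, 2 and 3. With the slide as a block 29 passed at PTC and 10 at 10PTC. The share of all genes called at PTC was 33.1%, against 19.1% without PTC replicate 3 and 22.5% with the slide as a block.

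**Figure D3:**
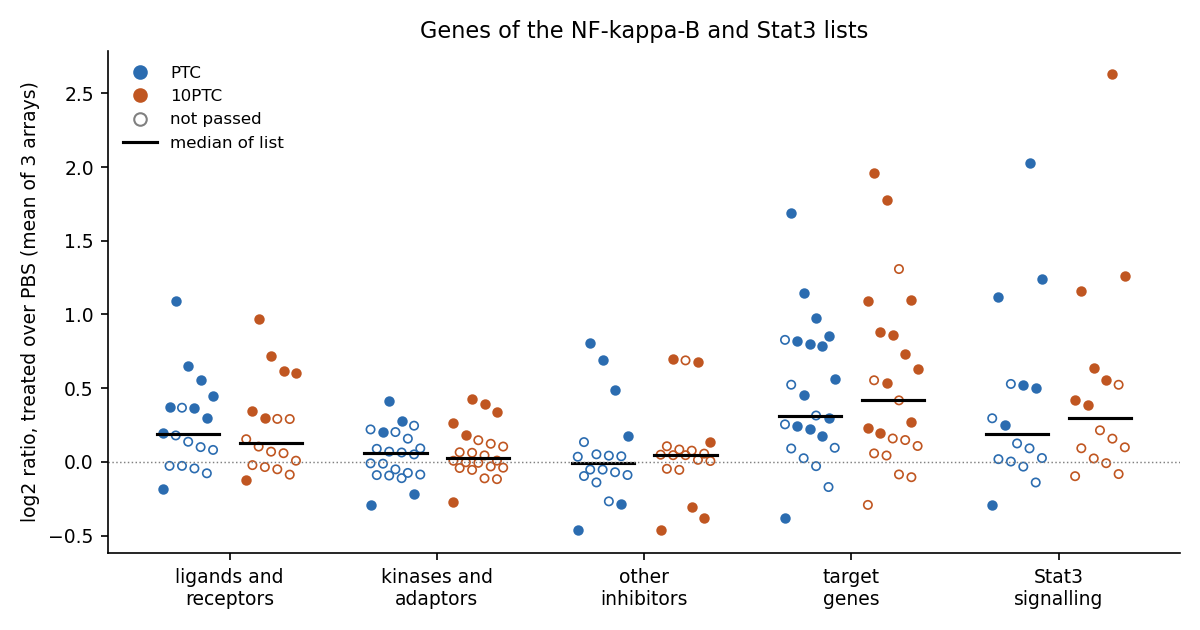
Mean log2 ratio of treated over PBS for each measured gene of the 5 lists, the last for Stat3 signalling, at PTC in blue and 10PTC in orange. Filled points passed an adjusted p of 0.05 in limma and black lines are the medians of the lists, which run from -0.0084 for other inhibitors at PTC to 0.42 for target genes at 10PTC.

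Of 18 ligands and receptors measured, 8 rose and 1 fell at PTC, and 6 rose and 1 fell at 10PTC, with medians of 0.19 and 0.13. Tnfrsf1a, the main receptor for tumour necrosis factor, rose by 1.09 ± 0.46 and 0.97 ± 0.10 (SD, n = 3; limma adjusted p = 0.00267 and 0.00502), and all 6 arrays stood at 0.73 or more. Il1r1, the signalling receptor for interleukin-1, rose by 0.37 ± 0.14 and 0.60 ± 0.088 (adjusted p = 0.00534 and 0.00168). Tlr2, a receptor for bacterial lipoproteins, rose by 0.65 ± 0.47 and 0.72 ± 0.051 (adjusted p = 0.0152 and 0.0139). The Tlr3 probe, for a receptor of double-stranded RNA, was not well above background in the control channel on any array. The ratio of its mean signals was about 1.35-fold at PTC and 1.27-fold at 10PTC. With the control signal not well above background, these values are no firm minimum, and they make no allowance for the spread between pools. In the treated channel it was above background on 3 of 3 PTC arrays and 2 of 3 10PTC arrays. The filter thus kept Tlr3 through the treated channel alone. It is counted among the genes that rose, but its calls are no independent support. Lta, the ligand lymphotoxin-alpha, was the 1 gene that fell, by 0.19 and 0.12 on the log2 scale, with its treated channel above background on 2 of 3 arrays at each dose.

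Of 22 kinases and adaptors, 3 rose and 2 fell at PTC, and 5 rose and 1 fell at 10PTC, with medians of 0.057 and 0.027. The share that rose at PTC was no larger than that of all genes. Ripk1, a kinase of the tumour necrosis factor receptor complex, rose by 0.41 ± 0.12 and 0.42 ± 0.060 (SD, n = 3; limma adjusted p = 0.00273 and 0.0034). Malt1, a protease and scaffold, rose by 0.20 and 0.19. Myd88, the adaptor of Toll-like and interleukin-1 receptors, rose at 10PTC, by 0.39 ± 0.043 (adjusted p = 0.0204), and stood at 0.25 ± 0.27 at PTC (0.0758). Map3k7, the kinase TAK1, rose at PTC by 0.27 and stood at 0.065 at 10PTC, and its 3 probes differed in sign there. Traf6, a ubiquitin ligase of the interleukin-1 branch, was lower by its brightest probe, at -0.29 and -0.27, but a second probe stood at 0.17 and 0.34. Traf5 fell at PTC, at -0.22 (adjusted p = 0.0262).

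Of 18 other inhibitors, 4 rose and 2 fell at PTC, and 3 rose and 3 fell at 10PTC, with medians of -0.0084 and 0.047. Tnip2, which binds A20, rose by 0.49 ± 0.16 and 0.68 ± 0.014 (SD, n = 3; limma adjusted p = 0.0022 and 0.00134). Tax1bp1, a further partner of A20, rose by 0.69 ± 0.074 and 0.70 ± 0.23 (adjusted p = 0.00189 and 0.00261). Otud7b, a deubiquitinase of the non-canonical branch, was lower at -0.46 ± 0.0079 and -0.38 ± 0.098 (adjusted p = 0.00128 and 0.00312). Rnf11, also a partner of A20, was lower at -0.28 and -0.30 by its brightest probe, while its second probe stood at 0.073 and 0.087. Pdlim2, a ligase for nuclear p65, was lower at 10PTC, at -0.46 (adjusted p = 0.0167), and Itch and Usp18 rose at PTC by 0.18 and 0.81.

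Of 33 commonly cited target genes 23 were measured. At PTC 13 rose and 1 fell, and at 10PTC 12 rose and none fell, with medians of 0.31 and 0.42. Lcn2, lipocalin 2, a protein of the acute phase and of reactive glia, rose by 1.69 ± 0.97 and 1.96 ± 0.48 (SD, n = 3; limma adjusted p = 0.00874 and 0.00705). Lcn2 is also in the glial list of markers. Cxcl10, a chemokine that interferons also induce, stood at 0.87, 0.21 and 1.38 on the PTC arrays and at 1.89, 1.40 and 2.04 on the 10PTC arrays. It passed at both doses (adjusted p = 0.0217 and 0.00246), and all 10PTC arrays lay above all PTC arrays, but the difference of 0.96 between the doses did not pass (adjusted p = 0.569). Vcam1, an adhesion molecule, rose by 0.98 ± 0.40 and 0.88 ± 0.20 by its brightest probe, while a second probe stood at 0.39 and 0.25. The chemokine Ccl3 was above background in the control channel on 0 of 3 PTC arrays and 1 of 3 10PTC arrays. The ratio of its mean signals was 1.73-fold at PTC, which is no firm minimum and makes no allowance for the spread between pools. At 10PTC Ccl3 rose by 0.86. The filter kept Ccl3 through the treated channel, which was above background on 3 of 3 arrays at each dose. Its calls are therefore no independent support. The chemokine Ccl4 rose by 0.56 and 0.73, with its control channel above background on 1 of 3 PTC arrays and 3 of 3 10PTC arrays. The gene that fell at PTC was Ier3 (-0.38, adjusted p = 0.0341), named here after its value was seen. The microglial list of markers rose on the same arrays, and its part in the target genes was not tested.

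Of 16 genes of Stat3 signalling, a pathway of the interleukin-6 family of cytokines, 6 rose and 1 fell at PTC, and 7 rose and none fell at 10PTC, with medians of 0.19 and 0.30. Cebpd, a transcription factor of the acute phase that is also in the glial list, rose by 2.03 ± 0.76 and 2.63 ± 0.24 (SD, n = 3; limma adjusted p = 0.00192 and 0.00136). Socs3, the feedback inhibitor of Stat3, rose by 1.12 ± 0.68 and 1.26 ± 0.022 (adjusted p = 0.00756 and 0.00667). Osmr, the oncostatin M receptor and also in the glial list, rose by 1.24 ± 0.58 and 1.16 ± 0.10. Il6st, the shared receptor gp130, rose by 0.50 ± 0.22 and 0.56 ± 0.029. Lifr, the receptor for leukaemia inhibitory factor, rose by 0.25 and 0.38 by its brightest probe. Its 3 probes ran from 0.058 to 0.25 at PTC and from 0.17 to 0.38 at 10PTC. Cish, a feedback inhibitor mostly of Stat5, fell at PTC, at -0.29 (adjusted p = 0.00576), and stood at -0.082 at 10PTC.

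The genes whose ratios lay closest to those of Bcl3 over the 6 arrays were sought among 15974 named genes above background on all arrays, by the root-mean-square difference in log2 units. They were Ecel1, an endopeptidase of neurons, at 0.27, Lyz1, a lysozyme, at 0.47 and Cebpd at 0.51. Next came Edn2, an endothelin, at 0.52 and Serpina3n, a protease inhibitor of reactive glia, at 0.63. All 5 had, like Bcl3, their highest PTC value on replicate 1 and their lowest on replicate 2. This follows from choosing them by closeness to Bcl3 on these same arrays and is no separate result. On the 10PTC arrays Ecel1 stood at 2.41, 2.89 and 3.18 and Cebpd at 2.89, 2.42 and 2.59, around the Bcl3 values. Lyz1 and Serpina3n lay at or below 2.44 there. Closest to Relb were Sh3pxd2b, a scaffold of podosomes, at 0.047, Myd88 at 0.078 and Cdh13, a cadherin, at 0.079. Myd88 stood at 0.53, -0.012 and 0.21 on the PTC arrays and at 0.38, 0.44 and 0.35 on the 10PTC arrays.

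**Figure D4:**
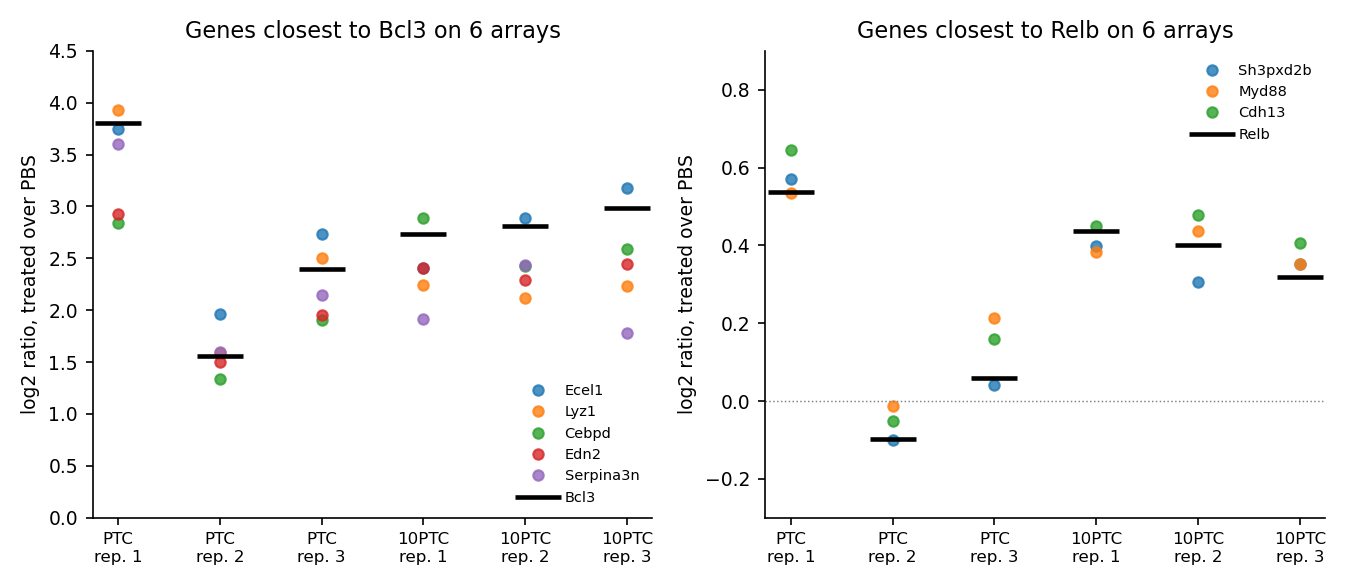
Log2 ratio of treated over PBS on each of the 6 arrays for the 5 genes closest to Bcl3 (left) and the 3 closest to Relb (right), as coloured points, with Bcl3 and Relb as black bars. In both panels PTC replicate 1 is the highest PTC array and PTC replicate 2 the lowest, which follows from choosing the genes by closeness on these arrays.

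Between 71.0% and 85.5% of the 43020 gene spots of an array were above background in Cy3 or Cy5, and 0 were saturated. The number of arrays limits the precision of all values. The p-values from limma rest on the spread between pools, estimated from both doses at once, and so do not follow from the SD of a single dose.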

How the data were processed

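Spot intensity values of both channels and log10 ratios of Cy5 over Cy3 were taken from the deposited scanner output, written by Agilent Feature Extraction 10.7.3.1 per the file headers (9.3.2.1 per the submitters' processing notes). A log2 ratio table that the authors deposited followed those log10 ratios with a slope of 3.32 and r of 0.983 to 1.00, and its centring stays unknown. In limma 3.58.1 (R 4.3.3), mean signals and median backgrounds were corrected with normexp (offset 50), then loess was run within arrays with control spots at weight 0. Outlier spots were dropped and spots of a probe averaged. Probes were kept if either channel was above background on 3 or more of the 6 arrays, which left out 6918, and the brightest probe stood for its gene. A probe above background in the treated channel alone could thus be kept. Names came from RefSeq by accession (26055 probes), symbol (3195) or synonym (930), and 9249 kept the file's name. The model had 1 coefficient per dose, tested two-sided against 0, with p-values adjusted by Benjamini-Hochberg over all genes at 0.05. The model fit alone was checked on simulated log2 ratios, and the steps before it were not simulated. Alternatives changed the background correction, normalization, filter, probe choice, values, samples, blocks and weights, 1 at a time.

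The members and lists were chosen with earlier results of these data known. Named were all members, the genes most like Bcl3 and Relb, and genes of the NF-kappa-B and Stat3 lists. Of each such list these were the 5 genes of smallest p for the mean of both doses. In those of up to 22, genes that passed against the list's median were named too. The marker lists were not treated alike, and of them only the 5 neutrophil genes of smallest p, Glul and Sag were named as markers. Nothing in the labels says whether the control RNA came from 1 pool or several.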

Additional observations from a re-analysis of the deposited data

How the results depend on the processing

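Each result was recomputed under up to 25 alternatives. Bcl3 passed as higher under all of those with a test but 1, on slide 1 alone, with means of 1.98 to 3.10 at PTC and 2.76 to 3.06 at 10PTC. At PTC 2 members passed; 1 did with a gene's probes averaged, each dose fitted alone, the slide as a block, slide 2 alone or a 2-fold rule, 0 on slide 1 alone, and 1 to 3 without single arrays. At 10PTC, where 4 passed, it was 1 with the slide as a block or a 2-fold rule and 1 to 6 without single arrays. Of the 97 genes of the lists, 41 at PTC became 22 with each dose alone, 1 on slide 1, 17 on slide 2, 6 by a 2-fold rule and 24 to 41 without single arrays; 38 at 10PTC became 67 with median centring, 10 with the slide as a block, 8 by a 2-fold rule and 13 to 46 without single arrays. The share of all genes called moved too, and these counts are to be read against it. At PTC this share was 33.1%. It became 17.6% with each dose alone, 22.5% with the slide as a block, 1.08% on slide 1 and 19.1% to 30.1% without single arrays. At 10PTC it was 27.7%, and became 56.1% with median centring, 3.85% with the slide as a block and 5.18% to 34.9% without single arrays. With the replicate number as a replicate block the members called were 2 and 4, and no member's call changed. Same-numbered arrays deviated with r of -0.27, 0.15 and 0.20, so the numbers were not taken to pair the arrays.

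Signs turned in values that passed under neither setting, and the cause was not tested. Without single arrays the means ran from -0.11 to 0.046 for Rela, -0.078 to 0.23 for Nfkb2 and -0.019 to 0.30 for Relb at PTC, and from -0.029 to 0.052 for Rela and -0.014 to 0.18 for Nfkbiz at 10PTC. Differences between the doses then ran from -0.039 to 0.12 for Rela, -0.14 to 0.068 for Nfkbiz, -0.10 to 0.28 for Tnfaip3 and -0.26 to 0.86 for Bcl3. At PTC, Rela was 0.16 with median centring, 0.018 in the authors' deposited table and 0.046 on slide 1, Nfkbia 0.067 with median centring, and Nfkb2 -0.014 and Nfkbiz -0.00041 on slide 2. At 10PTC, Rela was -0.022 with array weights. Between the doses Nfkbiz was 0.11 with the slide as a block and on slide 2, and 0.025 with array weights. Signal over background limits Nfkb1, Nfkb2, Nfkbiz and Rel, whose control signals were 182 units or less.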

Other observations

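The genes that neighbour Bcl3 on chromosome 7 in RefSeq order, named here outside the rule for named genes, did not share its increase. Of the 4 measured protein-coding genes before it and the 4 after it, none passed as higher at either dose. Tomm40, of the mitochondrial import pore, was lower at -0.32 and -0.19 (limma adjusted p = 0.00405 and 0.0276). The others stood at 0.086 and 0.21 for Nectin2, -0.28 and -0.15 for Bcam, -0.40 and -0.63 for Cblc, -0.042 and -0.042 for Pvr, -0.028 and 0.050 for Igsf23, 0.0080 and 0.060 for Ceacam20 and 0.011 and 0.094 for Nlrp9b, and did not pass.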
